A study of Mus musculus with 9 samples.

Results

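The genes described here are 40 genes of the hepatic extracellular matrix and of stellate cells, chosen by gene symbol, out of 16857 genes measured in mouse liver. All 40 symbols were in the table of expression values, and 38 of them reached the level needed for testing, which was 1 FPKM or more in 2 or more of the 9 libraries. FPKM is a count of sequenced fragments divided by the length of the transcript and the size of the library, so that levels of different genes can be set side by side. The 2 genes below that level were Lox and Loxl1, which encode enzymes that crosslink collagen and elastin.

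Every mouse had received acetaminophen (APAP), a drug that injures hepatocytes at high dose, so no library shows an uninjured liver. The 4 groups were wild-type mice given saline (3 libraries), wild-type mice given leonurine (2 libraries), mice labelled Adipor2 knock-out given saline (2 libraries) and mice labelled Adipor2 knock-out given leonurine (2 libraries). Leonurine, labelled Leo and called SCM-198 in the series title, is a plant alkaloid, and Adipor2 is a receptor for adiponectin. The study asked whether leonurine acts on injured liver through this receptor. The deleted part of Adipor2, whether the deletion is restricted to a cell type, the doses, the times and the age and sex of the mice are not given in the labels. The labels do not say which animal each library came from, so the p-values measure only the spread between these libraries, which may be technical.

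Hepatic stellate cells lie between hepatocytes and the sinusoidal endothelium and store vitamin A as retinyl esters made by Lrat. After injury they can take on a myofibroblast-like state, in which they express smooth muscle proteins such as Acta2 and Tagln and secrete fibrillar collagens. Platelet-derived growth factor drives their division, transforming growth factor beta drives matrix synthesis, and the balance of matrix metalloproteinases, their TIMP inhibitors and the plasminogen system decides how much matrix stays. Stellate cells are also a main source of Hgf, the growth factor that acts on hepatocytes through the receptor Met.

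The libraries held 35316653 to 38996734 fragments, recovered from the FPKM values. Adipor2 lay at 126 to 141 FPKM in wild-type saline livers, and at 70.1 to 88.2 FPKM in the other 6 libraries, which include both wild-type leonurine libraries. The level of the gene therefore did not separate the genotypes, and the knockout is given below as labelled. Fragments of Y-linked genes numbered 4154 to 5275 in 7 libraries, but 0 and 2 in the libraries labelled knockout given leonurine. In those 2 libraries Cyp2b9, a cytochrome P450 of female mouse liver, stood at 255 and 172 FPKM, against 0 to 5.18 elsewhere. Sex, as read from these genes, and the labelled group cannot be told apart in any comparison with that group. The first principal component (38.3% of the variance) placed wild-type leonurine replicate 2 at 52.2 and replicate 1 at 26.4, with the other 7 libraries below 0.

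The stellate cell genes outside the set were partly present. Hand2, a transcription factor of stellate cells, lay between 2.47 and 4.68 FPKM, and the secreted lectin Colec11 lay between 7.31 and 15.9 FPKM. Gfap, a classical stellate cell marker in rodents, reached no more than 0.200 FPKM, and Lhx2, which restrains stellate cell activation, no more than 0.767 FPKM. Among neighbouring cells that also make matrix, 10 markers of mesothelium and portal fibroblasts summed to 3.12 to 8.23 FPKM. The 6 markers of vascular smooth muscle summed to 13.4 to 22.2 FPKM. For scale, the 5 stellate and mural markers of the set summed to 19.4 to 29.7 FPKM. In whole liver, fewer cells of a type and less RNA per cell cannot be told apart.

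Levels of the 40 genes spanned from a mean of 0.206 FPKM for Lox to a mean of 497 FPKM for Fn1, over all 9 libraries. Fn1 encodes fibronectin, which hepatocytes also secrete into plasma. Col18a1, the basement membrane collagen from which endostatin is cut, came next at a mean of 120.1 FPKM, followed by the proteoglycans Dcn at 74.5 FPKM and Bgn at 58.0 FPKM. The genes of type I collagen were low, with means of 3.44 FPKM for Col1a1 and 4.79 FPKM for Col1a2. The smooth muscle actin gene Acta2 lay between 1.44 and 3.69 FPKM.

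**Figure D1:**
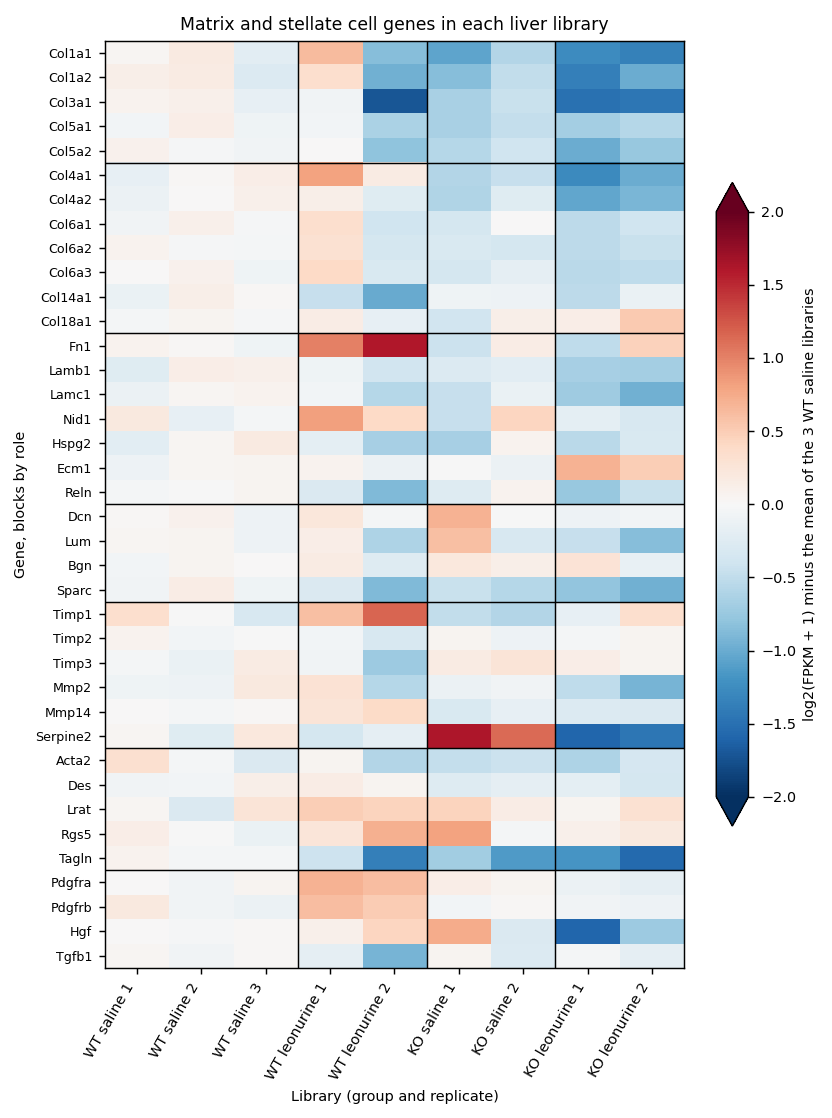
Heat map of 38 genes (rows, in blocks by role) in 9 libraries (columns, by group and replicate; KO, labelled Adipor2 knock-out). Colour is log2(FPKM + 1) minus the mean of the 3 wild-type saline libraries, and saturates beyond 2 in either direction. The fibrillar collagens at the top are lower in both labelled knockout groups, and the 2 wild-type leonurine libraries differ from each other.

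Differences were tested on log2(FPKM + 1) with limma across all genes, with p-values adjusted by the Benjamini-Hochberg method over 10451 tested genes, and a gene was called at an adjusted p under 0.05. Values after ± are standard errors for fold changes and standard deviations for levels. The 5 comparisons share libraries, so their results are not independent of each other.

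Wild-type livers given leonurine had more fibronectin RNA, and more RNA of Pdgfrb, a receptor for platelet-derived growth factor, than those given saline. The related receptor Pdgfra was also higher, but only the leonurine libraries brought it over the level needed for testing, so its calls are no support here or in the counts below. Of the 38 genes, 3 were called higher, Fn1, Pdgfra and Pdgfrb, and 0 lower, where 1.9% of all tested genes were called higher, 4.72% lower and 6.62% in either direction. At an unadjusted p under 0.05 by limma there were 14 of 38, and 2549 of all 10451 tested genes. The median log2 change was -0.09 over the 38 genes and -0.12 over all tested genes. The sign of the first rested on scaling and on single libraries, at 0.03 under median-ratio scaling, 0.01 under quantile normalization, 0.14 without leonurine replicate 2 and -0.34 without leonurine replicate 1. The leonurine group lay wholly above the saline group for 10 genes and wholly below it for 5, where the shares of all tested genes were 12.8% and 34.2%.

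In livers labelled knockout, leonurine was followed by a large fall of Serpine2, an inhibitor of thrombin and of plasminogen activators. It was the only member called, with 1 of 38 lower and 0 higher, where 1.49% of all tested genes were called lower, 0.603% higher and 2.1% in either direction. The median log2 change was -0.24 over the 38 genes and -0.19 over all tested genes, and that of the 38 genes was -0.08 under median-ratio scaling and -0.07 under quantile normalization. Without overlap, 23 genes were lower and 3 were higher under leonurine, where the shares of all tested genes were 40.8% and 8.61%.

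The test of the difference between these responses called Serpine2 and Pdgfra, 2 of 38 with the response more negative in the labelled knockout and 0 with it more positive. Of all tested genes, 2.03% were called with a more negative and 1.71% with a more positive response, 3.74% in all. The median difference was -0.22 over the 38 genes and -0.07 over all tested genes. For the 38 genes it turned to 0.08 without wild-type leonurine replicate 1, was -0.47 without wild-type leonurine replicate 2, and was -0.13 without knockout saline replicate 2.

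Between genotypes under saline, 0 of 38 genes were called by limma and 7 of 38 had an unadjusted p under 0.05. So had 1379 of all 10451 tested genes. In that comparison 0.0191% of all tested genes were called, 0.00957% higher and 0.00957% lower. The labelled knockout lay wholly below wild type for 16 of 38 genes and wholly above it for 3, where the shares of all tested genes were 11.1% and 27.6%. The fold change was negative for 29 of 38 genes, against 38.2% of all tested genes. The median log2 difference was -0.16 over the 38 genes and 0.08 over all tested genes, and that of the 38 genes was -0.31 without knockout saline replicate 2, -0.24 under median-ratio scaling and -0.27 under quantile normalization.

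Between genotypes under leonurine, 8 of 38 genes were called lower in the labelled knockout and 1 higher, where 5.25% of all tested genes were called lower, 6.99% higher and 12.2% in either direction. The lower genes were both chains of type IV collagen (Col4a1, Col4a2), Fn1, Mmp14, Serpine2, Pdgfra, Pdgfrb and Hgf, and the higher gene was Ecm1. The call of Pdgfra is no support, as only the wild-type leonurine libraries brought it into the test. Without overlap, 20 genes were lower and 3 higher in the labelled knockout, where the shares of all tested genes were 26.4% and 25.6%. The median log2 difference was -0.44 over the 38 genes and 0.01 over all tested genes, and that of the 38 genes was -0.13 without wild-type leonurine replicate 1 and -0.64 without wild-type leonurine replicate 2.

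**Figure D2:**
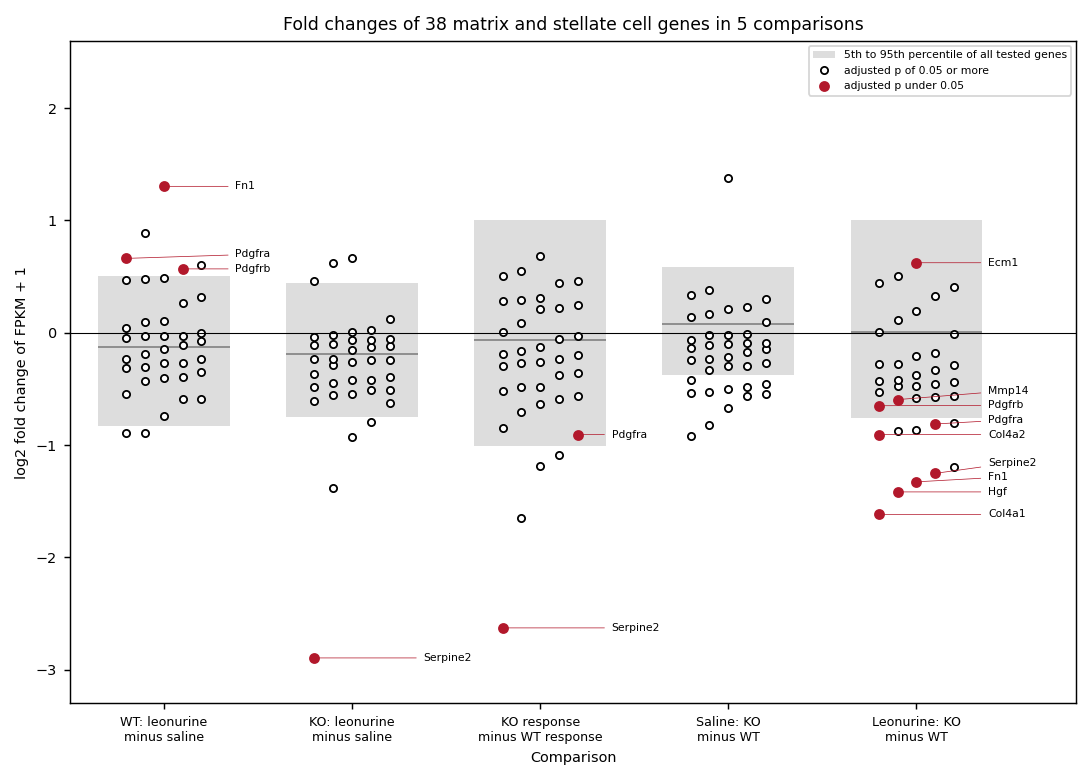
Log2 fold change of FPKM + 1 (vertical axis) of 38 genes in the 5 comparisons (KO, labelled Adipor2 knock-out; WT, wild type). Each circle is a gene, red and named where the adjusted p is under 0.05; grey boxes span the 5th to 95th percentile of all tested genes and the grey line is their median. Under leonurine 8 genes are called lower in the labelled knockout and 1 higher. Pdgfra was tested only through the wild-type leonurine libraries, in which it was high, so its calls are no support.

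The fibrillar collagens form the banded fibres of scar tissue. Col3a1, a chain of type III collagen and the most abundant of the 5, had 18.5, 19.0 and 15.7 FPKM in wild-type saline livers, 16.7 and 4.69 in wild-type leonurine livers, 10.9 and 12.6 in the labelled knockout given saline, and 5.64 and 5.81 in the labelled knockout given leonurine. The 2 wild-type leonurine libraries lay far apart, one inside the saline range and the other below every library of the labelled knockout. Col1a1, the alpha 1 chain of type I collagen, had 4.77, 5.39 and 3.86 FPKM in wild-type saline, 7.76 and 2.14 in wild-type leonurine, 1.71 and 2.75 in knockout saline, and 1.35 and 1.22 in knockout leonurine livers. Col5a1, a chain of type V collagen, which helps to start fibril assembly, had 2.09, 2.52 and 2.02 FPKM in wild-type saline, 2.07 and 1.06 in wild-type leonurine, 1.04 and 1.31 in knockout saline, and 1.002 and 1.15 in knockout leonurine livers. Col1a2, the alpha 2 chain of type I collagen, ranged from 1.89 to 8.48 FPKM and Col5a2 from 0.653 to 2.49 FPKM.

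Under saline all 5 fibrillar collagens lay lower in the labelled knockout, with no overlap between groups, and their mean levels there ran from 47.7% (Col1a1) to 66.6% (Col3a1) of wild type. None passed the test. The log2 difference of Col5a1 was -0.56 ± 0.18 (adjusted p = 0.272), and that of Col1a1 was -0.82 ± 0.36 (adjusted p = 0.370). The direction of all 5 genes was the same under median-ratio scaling and quantile normalization, and with any 1 library left out. Under leonurine the difference was negative for all 5 genes with a median of -0.58, but without wild-type leonurine replicate 1 it was negative for 3 of 5 with a median of -0.07.

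In wild-type livers the fibrillar collagens followed the individual leonurine library. Col1a1 was 3.63 times as high in replicate 1 as in replicate 2, and Col3a1 was 3.56 times as high. Replicate 1 above and replicate 2 below the whole saline range was the pattern of 11 of 38 genes (28.9%), against 9.66% of all tested genes. These genes were Col1a1, Col1a2, Col4a2, Col6a1, Col6a2, Col6a3, Col18a1, Ecm1, Lum, Bgn and Mmp2. The opposite pattern was seen in 0 of the 38 genes and in 1% of all tested genes. With replicate 1 left out, the change in wild type was negative for all 5 fibrillar collagens with a median of -0.85, and Col3a1 stood at -1.71. With replicate 2 left out, the change was negative for 2 of 5 with a median of 0.0072. Each of these fits leaves 1 library in the leonurine group, so no test is given. Summed hepatocyte markers also differed between these libraries, at 59558 FPKM in replicate 1 and 35319 FPKM in replicate 2. Under saline the sum was 69831 to 77242 FPKM. Most of each sum was the albumin gene Alb, at 46277 FPKM in replicate 1 and 26493 FPKM in replicate 2. Alb, Apoa1, Ttr, Cyp2e1 and Ass1 lay below their saline ranges in both libraries, and Cps1 only in replicate 2. Apob stayed within its saline range in both, and Serpina1a lay above its own. The sum therefore does not describe every marker in it. The part of the hepatocyte markers in the collagen values was not tested.

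**Figure D3:**
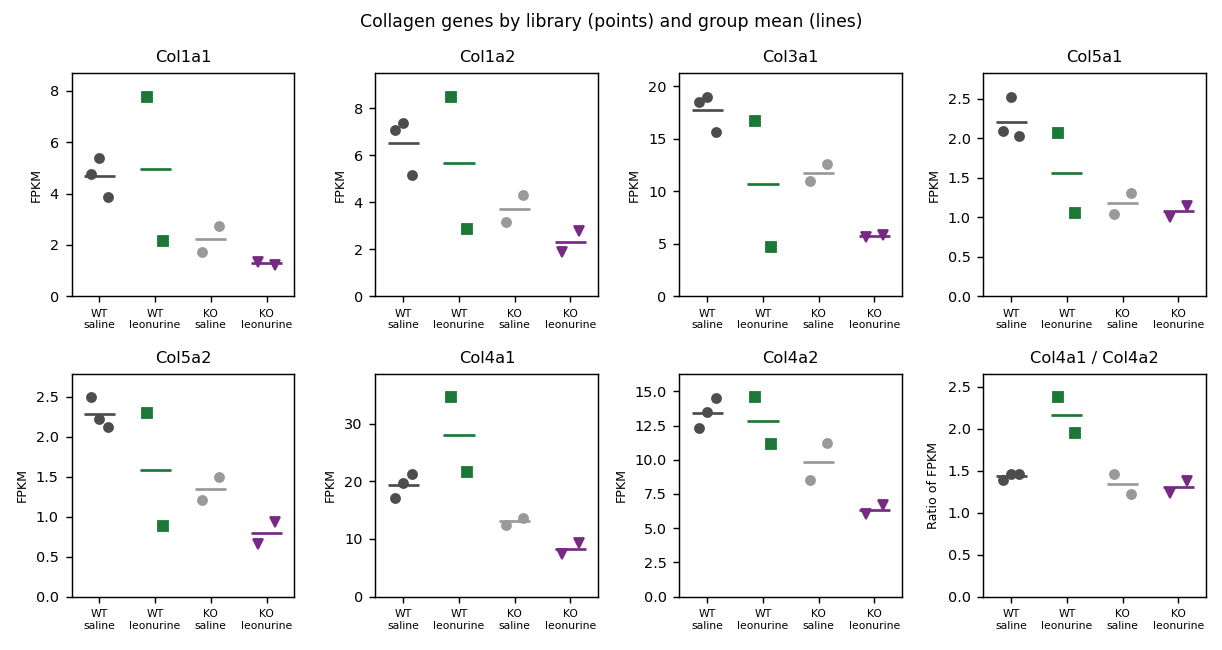
FPKM (vertical axes, from 0) of 7 collagen genes in each library, and the ratio of Col4a1 to Col4a2, by group (KO, labelled Adipor2 knock-out). Points are libraries and lines are group means. Col1a1 in wild-type leonurine livers reads 7.76 and 2.14 FPKM, on either side of the saline group.

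The type IV collagen chains Col4a1 and Col4a2 wind together into the network of basement membranes, including that of the sinusoids. Their genes lie head to head and are read from a shared, bidirectional promoter. On mouse build GRCm38 (mm10), Col4a1 spans chr8:11198423-11312826 on the minus strand and Col4a2 spans chr8:11312805-11449287 on the plus strand, overlapping by 22 bases in the GENCODE annotation. The promoter windows of RefSeq on GRCm38.p6, 250 bases before to 50 after each start site, share 78 bases. They are shown because both genes were called together, and the capitals mark the shared bases, which read as reverse complements of each other. The Col4a1 window is chr8:11312777-11313076 on the minus strand and the Col4a2 window is chr8:11312555-11312854 on the plus strand.
Col4a1: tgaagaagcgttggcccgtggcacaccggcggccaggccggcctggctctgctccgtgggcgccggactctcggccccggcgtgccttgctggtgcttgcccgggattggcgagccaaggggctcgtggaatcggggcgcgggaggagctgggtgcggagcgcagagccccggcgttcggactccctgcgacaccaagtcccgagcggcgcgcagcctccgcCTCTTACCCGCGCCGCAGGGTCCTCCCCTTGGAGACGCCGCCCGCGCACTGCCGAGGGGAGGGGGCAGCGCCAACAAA
Col4a2: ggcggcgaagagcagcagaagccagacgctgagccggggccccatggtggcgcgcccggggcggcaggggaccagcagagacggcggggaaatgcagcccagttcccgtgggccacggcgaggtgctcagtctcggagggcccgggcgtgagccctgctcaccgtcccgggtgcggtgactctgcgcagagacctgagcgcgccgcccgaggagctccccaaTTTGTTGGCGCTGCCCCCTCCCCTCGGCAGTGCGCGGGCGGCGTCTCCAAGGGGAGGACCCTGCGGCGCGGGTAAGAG

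Col4a1 had 17.1, 19.7 and 21.2 FPKM in wild-type saline, 34.5 and 21.7 in wild-type leonurine, 12.5 and 13.7 in knockout saline, and 7.38 and 9.22 in knockout leonurine livers. The groups did not overlap in any comparison between genotypes, and the knockout leonurine libraries were the lowest of all. Under leonurine Col4a1 was lower in the labelled knockout by a log2 difference of -1.62 ± 0.22 (adjusted p = 0.00333), with a mean 29.5% of wild type, and it stayed called in all 17 alternatives run. Col4a2 had 12.4, 13.5 and 14.5 FPKM in wild-type saline, 14.6 and 11.1 in wild-type leonurine, 8.52 and 11.2 in knockout saline, and 6.0 and 6.69 in knockout leonurine livers. Its genotypes did not overlap under either treatment, and the knockout leonurine libraries were again the lowest. Its difference under leonurine was -0.91 ± 0.18 (adjusted p = 0.0148), with a mean 49.4% of wild type, and it was no longer called without knockout leonurine replicate 1 (adjusted p = 0.0874) or with only the libraries compared (adjusted p = 0.0861).

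The ratio of Col4a1 to Col4a2 was 1.39 to 1.46 in wild-type saline, 2.37 and 1.95 in wild-type leonurine, and 1.22 to 1.47 in the labelled knockout. The wild-type leonurine libraries thus had more Col4a1 than Col4a2 relative to all other libraries. Without stated strand, reads of overlapping antisense genes cannot be told apart. The annotated overlap is the 22 bases at the starts, and the part of such reads in the ratio was not tested. Of 11 sinusoidal endothelium markers, 3 were called higher and 1, Lyve1, lower in the labelled knockout under leonurine, where 6.99% and 5.25% of all tested genes were called. Their summed level was 170 and 150.1 FPKM there, against 133 and 112 FPKM in wild type, and its part in the type IV collagen difference was not tested.

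The other collagens were not called. Col18a1, the most abundant of them, had 112, 120.1 and 114 FPKM in wild-type saline, 128 and 103 in wild-type leonurine, 87.6 and 125 in knockout saline, and 126 and 165 in knockout leonurine livers. Col14a1, which binds along fibrils, had 8.96, 11.0 and 10.1 FPKM in wild-type saline and 6.97 and 4.45 in wild-type leonurine livers, without overlap. Its log2 change was -0.74 ± 0.19 (adjusted p = 0.0526). The 3 chains of type VI collagen, Col6a1, Col6a2 and Col6a3, had mean levels of 86.5%, 65.7% and 71.8% of wild type in the labelled knockout under saline.

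Among basement membrane proteins and glycoproteins, fibronectin changed in wild type. Fn1, at chr1:71585520-71653200 on the minus strand, had 393, 379 and 350.3 FPKM in wild-type saline, 753 and 1132 in wild-type leonurine, 276 and 413 in knockout saline, and 262 and 516 in knockout leonurine livers. Both wild-type leonurine libraries lay above all others. The mean rose from 374 ± 21.5 to 942 ± 268 FPKM, a log2 change of 1.30 ± 0.31 (adjusted p = 0.0422). The call was kept in 10 of 18 alternatives. It was lost without any one of the wild-type saline libraries (adjusted p = 0.0916, 0.130 and 0.135), without wild-type leonurine replicate 2 (0.266), and narrowly without either knockout saline library (0.0517 and 0.0515). Under leonurine the labelled knockout had 41.2% of the wild-type mean, a difference of -1.33 ± 0.34 (adjusted p = 0.0362), kept in 9 of 17 alternatives. That call was lost without any one wild-type saline library (adjusted p = 0.0623, 0.0617 and 0.0663), wild-type leonurine replicate 2 (0.163) or knockout leonurine replicate 1 (0.207). The difference between responses was -1.18 ± 0.47 (adjusted p = 0.188). Acute-phase genes, made by hepatocytes, moved in the same libraries, with 10 of 12 called higher in wild type under leonurine. Their summed level was 49128 and 127304 FPKM there, against 14628 to 18523 FPKM under saline, and its part in the rise of Fn1 was not tested.

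Ecm1, a secreted glycoprotein that in mouse liver holds latent transforming growth factor beta inactive, was the only one of the 38 genes called higher in the labelled knockout under leonurine. It had 29.0, 31.9 and 32.4 FPKM in wild-type saline, 32.5 and 28.6 in wild-type leonurine, 31.0 and 28.4 in knockout saline, and 51.1 and 44.1 in knockout leonurine livers. Only the last group stood apart. The difference from wild type was 0.62 ± 0.16 (adjusted p = 0.0368), kept in 8 of 17 alternatives, and the change from knockout saline was 0.66 ± 0.16 (adjusted p = 0.0733, but 0.0147 under median-ratio scaling and 0.0191 under quantile normalization). The first call was lost under quantile normalization, with the replicate block, with array weights and with only the libraries compared. It was also lost without any one wild-type saline library (adjusted p = 0.0678, 0.0728 and 0.0780), wild-type leonurine replicate 2 or knockout leonurine replicate 1. Its promoter window, chr3:95739520-95739819 on the minus strand, is shown because it was 1 of 2 windows among the 31 of these genes with an AP-1 site (TGAGTCA on either strand), and also held a TATA box (TATAAA on either strand). Both are in capitals.
Ecm1: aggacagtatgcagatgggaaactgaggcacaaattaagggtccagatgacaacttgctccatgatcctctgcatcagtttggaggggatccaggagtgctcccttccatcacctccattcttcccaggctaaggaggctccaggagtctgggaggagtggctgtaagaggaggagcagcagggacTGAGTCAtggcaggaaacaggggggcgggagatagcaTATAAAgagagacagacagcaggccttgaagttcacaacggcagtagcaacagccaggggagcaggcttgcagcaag
An AP-1 site by these letters was in 6.45% of the member windows and in 5.2% of all 32851 windows, and the TATA box in 6.45% and 13.6%. The GC box (GGGCGG on either strand) was in 67.7% of member windows and 35.7% of all windows, and the CCAAT box (CCAAT on either strand) in 38.7% and 37.4%. A match is a description of letters and not a binding site. Of the 40 genes, 28 had a window.

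The remaining 5 genes of the group were not called in any comparison. The laminin chains Lamb1 and Lamc1 had means of 59.95% and 61.9% of wild type in the labelled knockout under leonurine. The linker protein Nid1 had 15.9, 12.3 and 13.5 FPKM in wild-type saline, 25.1 and 18.5 in wild-type leonurine, 9.82 and 18.9 in knockout saline, and 11.9 and 10.9 in knockout leonurine livers. Reln, a large glycoprotein of stellate cells in liver, ranged from 4.88 to 10.5 FPKM and differed by -0.59 ± 0.20 (adjusted p = 0.106) under leonurine in wild type. Lamb1 ranged from 1.15 to 2.77 FPKM, Lamc1 from 2.59 to 6.34 FPKM, and Hspg2 (perlecan, a heparan sulfate proteoglycan) from 2.61 to 5.46 FPKM.

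The small proteoglycans and matricellular proteins bind collagen fibrils or modulate cell adhesion, and none of the 4 was called. Dcn (decorin) had 70.3, 73.4 and 64.9 FPKM in wild-type saline, 81.9 and 67.2 in wild-type leonurine, 113 and 68.8 in knockout saline, and 64.3 and 66.6 in knockout leonurine livers. The high value of knockout saline replicate 1 recurred in Lum (lumican), with 13.3 FPKM against 6.56 in replicate 2. The genes of Dcn and Lum lie 47.0 kb apart on chromosome 10. Hgf on chromosome 5 and Rgs5 on chromosome 1 also had their highest value in that library, while most of the 38 genes did not. Bgn (biglycan) ranged from 46.8 to 68.0 FPKM. Sparc (osteonectin) had 53.1, 62.1 and 52.8 FPKM in wild-type saline, 45.4 and 29.8 in wild-type leonurine, 40.9 and 37.4 in knockout saline, and 32.0 and 28.4 in knockout leonurine livers. Wild-type saline livers were the highest without overlap, but its log2 change under leonurine in wild type was -0.59 ± 0.19 (adjusted p = 0.103) and the genotype difference under saline was -0.50 ± 0.19 (adjusted p = 0.333).

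Serpine2 (protease nexin 1), at chr1:79794197-79861180 on the minus strand, had the largest log2 change of the 38 genes in any of the 5 comparisons. It had 3.96, 3.11 and 4.60 FPKM in wild-type saline, 2.79 and 3.29 in wild-type leonurine, 13.9 and 9.64 in knockout saline, and 0.613 and 0.777 in knockout leonurine livers. The knockout saline libraries were the highest and the knockout leonurine libraries the lowest of the 9, while the wild-type groups overlapped. Its lowest library held 29 fragments of the gene. Its promoter window, chr1:79858616-79858915 on the minus strand, is shown because of that change, with 6 GC boxes in capitals and 77.7% G and C. The start site of this window, 79858665, lies inside the gene span given above and is not the start of that span, 79861180.
Serpine2: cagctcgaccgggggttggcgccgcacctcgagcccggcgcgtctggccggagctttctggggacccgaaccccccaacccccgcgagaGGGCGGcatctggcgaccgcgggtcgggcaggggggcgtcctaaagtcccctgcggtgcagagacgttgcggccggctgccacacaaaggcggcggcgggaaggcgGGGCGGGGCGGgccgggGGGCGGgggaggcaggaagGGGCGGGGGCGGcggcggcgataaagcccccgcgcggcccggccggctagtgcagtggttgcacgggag

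In the labelled knockout Serpine2 fell by 2.89 ± 0.20 on the log2 scale under leonurine (adjusted p = 7.25e-05), to a mean 5.90% of that under saline, on the scale of FPKM. In wild type the mean under leonurine was 78.1% of that under saline, and the difference between responses was -2.63 ± 0.28 (adjusted p = 0.00174). Both calls were kept in every alternative run that tested the gene, 16 and 15. Under leonurine the labelled knockout was lower than wild type by -1.25 ± 0.20 (adjusted p = 0.00678), not called without knockout leonurine replicate 1 (adjusted p = 0.0508). Under saline it lay at 302% of wild type, at 1.38 ± 0.19 (adjusted p = 0.0673), and passed with only the saline libraries in the fit (adjusted p = 0.0435). The knockout leonurine libraries are those with 0 and 2 Y-linked fragments, so the fall of Serpine2 and this difference in sex-linked genes cannot be told apart. The levels under saline come from other libraries, which all held Y-linked fragments.

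The matrix metalloproteinase Mmp14, which activates Mmp2 at the cell surface, had 19.1, 18.5 and 19.2 FPKM in wild-type saline, 22.7 and 25.0 in wild-type leonurine, 15.1 and 16.8 in knockout saline, and 15.5 and 15.4 in knockout leonurine livers. The genotypes did not overlap under either treatment. The difference under leonurine was -0.59 ± 0.14 (adjusted p = 0.0277), kept in 8 of 17 alternatives. It was lost without any one wild-type saline library (adjusted p = 0.0583, 0.0591 and 0.0639), wild-type leonurine replicate 2 (0.103) or either knockout leonurine library (0.102 and 0.0664). Timp1, an inhibitor of metalloproteinases, had 2.39, 1.69 and 1.16 FPKM in wild-type saline, 3.12 and 5.09 in wild-type leonurine, 0.917 and 0.807 in knockout saline, and 1.40 and 2.42 in knockout leonurine livers. Its change in wild type, 0.89 ± 0.24, was not called (adjusted p = 0.0578). The inhibitors Timp2 (2.69 to 3.88 FPKM) and Timp3 (3.29 to 7.49 FPKM) and the gelatinase Mmp2 (0.494 to 2.48 FPKM) were called in none of the 5 comparisons. Lox lay between 0.0647 and 0.329 FPKM and Loxl1 between 0.209 and 0.920 FPKM, without a test.

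The markers of stellate and mural cells gave no called gene. Rgs5, a pericyte regulator of G protein signalling, had 10.05, 8.92 and 8.19 FPKM in wild-type saline, 10.9 and 15.3 in wild-type leonurine, 16.4 and 8.72 in knockout saline, and 9.78 and 10.4 in knockout leonurine livers. Tagln (transgelin), an actin-binding protein of smooth muscle and activated stellate cells, had 9.65, 8.96 and 8.95 FPKM in wild-type saline, 6.62 and 2.94 in wild-type leonurine, 5.28 and 3.62 in knockout saline, and 3.49 and 2.47 in knockout leonurine livers. Wild-type saline libraries were all higher than the other 6. The genotype difference of Tagln under saline was -0.92 ± 0.26 (adjusted p = 0.234) and its change under leonurine in wild type -0.89 ± 0.26 (adjusted p = 0.0736). The intermediate filament gene Des, Lrat and Acta2 stayed within 1.17 to 2.09, 2.57 to 5.12 and 1.44 to 3.69 FPKM.

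Both platelet-derived growth factor receptors were higher under leonurine in wild type. Pdgfra, at chr5:75152292-75198215 on the plus strand, had 0.788, 0.702 and 0.858 FPKM in wild-type saline, 1.90 and 1.74 in wild-type leonurine, 0.962 and 0.844 in knockout saline, and 0.641 and 0.571 in knockout leonurine livers. The wild-type leonurine libraries were the only ones to reach 1 FPKM, so the gene entered the test through the group in which it was high. Its rise was 0.66 ± 0.13 (adjusted p = 0.0198), kept in 12 of 17 alternatives, and lost without any one wild-type saline library (adjusted p = 0.0559, 0.0882 and 0.0685) or wild-type leonurine replicate 2 (0.0796). The difference between responses was -0.91 ± 0.19 (adjusted p = 0.0340), kept in 5 of 15 alternatives, and lost (adjusted p from 0.0543 to 0.105) when any library other than wild-type leonurine replicate 1 was left out. Under leonurine the labelled knockout had 33.3% of the wild-type mean, at -0.81 ± 0.14 (adjusted p = 0.00783), kept in 15 of 16 alternatives. Given how Pdgfra entered the test, none of its calls or of these tallies is support.

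Pdgfrb, the receptor that marks stellate cells and pericytes, had 2.09, 1.57 and 1.503 FPKM in wild-type saline, 3.17 and 2.87 in wild-type leonurine, 1.61 and 1.74 in knockout saline, and 1.59 and 1.54 in knockout leonurine livers. As for Pdgfra, both wild-type leonurine libraries exceeded the rest. The rise of 0.57 ± 0.14 (adjusted p = 0.0428) was kept in 3 of 17 alternatives and lost (adjusted p from 0.0506 to 0.160) when any library other than wild-type saline replicate 1 was left out, and the difference between genotypes under leonurine, -0.65 ± 0.15 (adjusted p = 0.0242), was kept in 9 of 16. The latter was lost without either wild-type leonurine library (adjusted p = 0.0708 and 0.0702) or either knockout leonurine library (0.0943 and 0.0651). The lower values of these receptors in the labelled knockout involve the libraries with few Y-linked fragments, while the rise in wild type does not.

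Hgf, at chr5:16553495-16620152 on the plus strand, had 5.48, 5.33 and 5.54 FPKM in wild-type saline, 5.91 and 7.65 in wild-type leonurine, 9.81 and 4.28 in knockout saline, and 1.16 and 2.89 in knockout leonurine livers. The knockout leonurine libraries were the lowest, and the knockout saline libraries lay on either side of wild type. Under leonurine Hgf was lower in the labelled knockout by -1.42 ± 0.34 (adjusted p = 0.0275), kept in 11 of 17 alternatives, and lost without wild-type leonurine replicate 2 (0.137) or knockout leonurine replicate 1 (0.171). The difference between responses was -1.64 ± 0.46 and was not called (adjusted p = 0.0831). Tgfb1, the main fibrogenic ligand, had 8.61, 7.93 and 8.49 FPKM in wild-type saline, 7.29 and 3.92 in wild-type leonurine, 8.68 and 6.71 in knockout saline, and 8.07 and 7.28 in knockout leonurine livers, and it was not called.

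**Figure D4:**
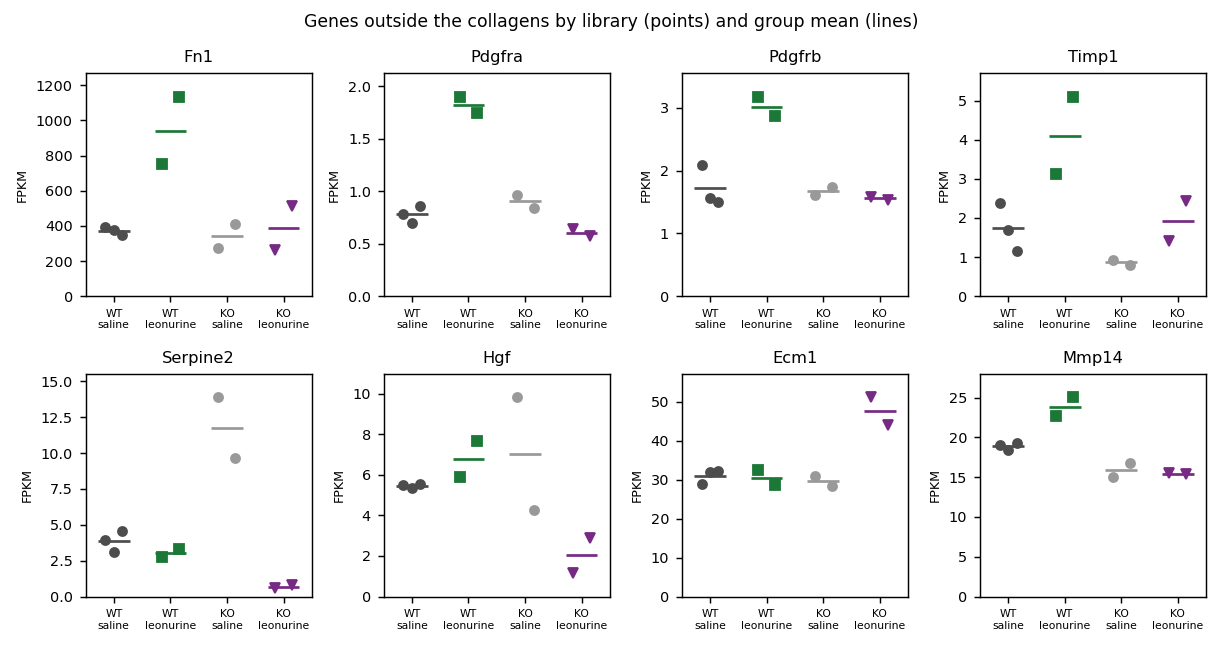
FPKM (vertical axes, from 0) of 8 genes outside the collagens in each library, by group (KO, labelled Adipor2 knock-out). Points are libraries and lines are group means. Serpine2 is highest in knockout saline livers (13.9 and 9.64 FPKM) and lowest in knockout leonurine livers (0.613 and 0.777 FPKM).

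Of the other genes of these pathways, taken from 6 fixed lists, few passed the test, and none did between genotypes under saline, where limma called 0.0191% of all tested genes. Among matrix proteases, the neutrophil collagenase Mmp8 had 1.80 and 1.34 FPKM in wild-type leonurine livers and 0.0339 to 0.784 FPKM in the other 7 libraries. It passed the level for testing only through the group in which it was high, so no test is given. Summed neutrophil markers were 154 and 65.4 FPKM in wild-type leonurine livers and 10.6 to 48.8 FPKM in wild-type saline livers. In the labelled knockout the sum was 15.2 and 7.02 FPKM under saline and 27.2 and 67.7 FPKM under leonurine. Mmp8 had 0.187 and 0.251 FPKM in those knockout leonurine libraries. The part of these markers in the level of Mmp8 was not tested. The membrane protease Mmp15 fell by 1.74 ± 0.38 in wild type under leonurine (adjusted p = 0.0324). Under leonurine the proteoglycan-cleaving Adamts1 was lower in the labelled knockout, at -0.99 ± 0.25 (adjusted p = 0.0323).

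Of 19 tested genes of transforming growth factor beta signalling, 1 was called in wild type, where 6.62% of all tested genes were called. Ltbp4, which tethers the latent ligand to matrix, fell by 0.94 ± 0.16 (adjusted p = 0.0132), with a difference between responses of 1.35 ± 0.24 (adjusted p = 0.0212). Under leonurine Ltbp4 was higher and Skil, which restrains the pathway, lower in the labelled knockout, with 1 of 19 called in each direction, where the shares of all tested genes were 6.99% higher and 5.25% lower. These counts, and that of the next list, are near those shares. Of 18 tested genes of collagen biosynthesis and folding, 1 was called, the prolyl hydroxylase P3h1, at -1.32 ± 0.24 (adjusted p = 0.00999) in the labelled knockout against wild type under leonurine. Of 15 integrins and collagen receptors, Itga5 and Itgav were called lower in that comparison, at -1.01 ± 0.19 (adjusted p = 0.0118) and -0.70 ± 0.14 (adjusted p = 0.0135). Itgav was also called lower in the labelled knockout under leonurine against saline (adjusted p = 0.0397).

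In the HGF axis, with 6 genes tested, Hgfac, the protease that activates the Hgf precursor, rose under leonurine in the labelled knockout. It had 69.0, 77.2 and 65.3 FPKM in wild-type saline, 61.2 and 50.7 in wild-type leonurine, 55.2 and 74.9 in knockout saline, and 179 and 144 in knockout leonurine livers. Its change there was 1.30 ± 0.21 (adjusted p = 0.0147), while the change of Hgf, -1.38 ± 0.34, did not pass (adjusted p = 0.0739). Klkb1 (prekallikrein) was called lower in wild type under leonurine, at -1.94 ± 0.37 (adjusted p = 0.0202). The receptor Met lay between 11.7 and 17.5 FPKM and was not called. Among platelet-derived growth factor ligands and other stellate cell genes, the stellate cell transcription factor Tcf21 and Angptl6 were called lower in wild type, at -0.99 ± 0.24 (adjusted p = 0.0413) and -1.01 ± 0.16 (adjusted p = 0.0103). Under leonurine, Angptl6 and Colec10 were higher and Adamtsl2 and Pdgfc lower in the labelled knockout.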

How the data were processed

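Liver RNA was extracted with TRIzol and made into libraries with a VAHTS Universal V6 kit, per the labels' protocols. The authors deposited 1 table of FPKM values for 16857 genes. Tools listed in the submitters' processing notes are HTSeq, HISAT2, fastp and R 3.2.0, with build mm10. Annotation and strand are not given in the sources used here. Columns were matched to libraries by the RNA number in their descriptions, and 0 numeric columns were left unmatched. Ratios of a gene's FPKM between libraries gave whole fragments for 16857 genes (tolerance 0.0001). These were used for depth, for the fragments of Y-linked and other genes and for the chi-square between libraries, and not for the limma tests. FPKM divides by library total, so abundant genes lower the rest, and the 10 largest genes held 20.5% to 30.0% of a library.

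limma 3.58.1 in R 4.3.3 was fitted with a trend to log2(FPKM + 1) of genes reaching 1 FPKM in 2 or more libraries, with 1 mean per group over all 9 libraries (5 residual and 4.4 prior degrees of freedom). The pseudocount of 1 understates fold changes of low genes. Simulated data for wild-type leonurine against saline, with 10451 genes, were drawn from the fitted model, with the same spread of a gene in every group. There 78% of log2 changes of 1 and 97% of changes of 2 were recovered, and 4.89% of calls were false. The real wild-type leonurine libraries lay far apart. These shares therefore check the code and do not measure power or false calls in these data.

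The genes and lists were chosen with earlier results of these data known. Every gene called, and the most abundant and the smallest-p gene of each role, is given in every library, and the other genes by ranges and counts. Named genes of the other lists are those called with the smallest p. Some called genes of these lists are not reported here. Gfap, Lhx2, Hand2, Colec11 and Met were named for their role. Alternatives were the pseudocount, the filter, median-ratio scaling, quantile normalization, the replicate block, array weights, fits to the groups compared, and leaving out each library. The labels do not say whether replicate numbers pair libraries, and the main fit did not pair them. No libraries agreed within sampling noise (chi-square over its degrees of freedom at least 32.1), and each was treated as 1 replicate. This value cannot tell separate animals from separate preparations of the same animal.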

Additional observations from a re-analysis of the deposited data

Results flagged for a closer look

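The limma test of the difference between the leonurine responses called 2 genes, Serpine2 and Pdgfra. The call of Pdgfra is no support, for the reason given below. For Serpine2 the difference was -2.63 on the log2 scale, with a fall in 2 of 2 knockout leonurine libraries against both knockout saline libraries. For Pdgfra it was -0.91, with both wild-type leonurine libraries above all wild-type saline libraries and both knockout leonurine libraries below the knockout saline libraries. Pdgfra reached the level for testing only through the wild-type leonurine libraries, in which it was high, and its call was lost in 10 of 15 alternatives. The knockout leonurine libraries held 0 and 2 fragments of Y-linked genes, and that difference and the group cannot be told apart.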

How the results depend on the processing

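Leaving out 1 library at a time, the number of genes called ran from 0 to 14 (3 with all libraries) for leonurine in wild type, from 1 to 2 (1) for leonurine in the labelled knockout, from 1 to 2 (2) for the difference between responses, from 0 to 1 (0) between genotypes under saline, and from 2 to 11 (9) between genotypes under leonurine. The shares of all tested genes called moved over 1.41% to 12.9%, 0.880% to 3.03%, 1.03% to 7.93%, 0 to 0.172% and 3.21% to 14.9% in the same order. Leaving out a library from a group of 2 leaves 1 library there, and the p-values behind such counts measure only the spread in the other groups. The highest count in wild type came from such a fit, without wild-type leonurine replicate 1. So did the lowest count between genotypes under leonurine, without knockout leonurine replicate 1. With no filter on low values, 1 was called in wild type (1.20% of all genes). With a mean FPKM of at least 5, 0 were called for leonurine in the labelled knockout and 0 for the difference (2.37% and 5.08% of all genes). Serpine2 and Pdgfra did not reach that mean and were not tested. Median-ratio scaling and quantile normalization each gave 2 in the labelled knockout (1.98% and 1.84% of all genes). These scalings moved the median of all genes in wild type from -0.12 to 0.0041 and 0.0066, and in the labelled knockout from -0.19 to -0.0063 and -0.0099. Array weights gave 1 for the difference and 4 between genotypes under leonurine (2.0% and 5.67% of all genes). With only the libraries compared, 1 was called between genotypes under saline and 2 under leonurine (0.584% and 2.90% of all genes). The replicate block gave 0 in wild type, 1 for the difference and 5 between genotypes under leonurine (0.718%, 0.976% and 8.51% of all genes). The deviations of same-numbered libraries from their group means correlated at 0.020 to 0.154. In groups of 2 these deviations mirror each other, so the values cannot show whether libraries were paired. In wild type the sign of Col1a1 reversed to 0.0092 under median-ratio scaling and to 0.64 without leonurine replicate 2, which also reversed Col1a2 (0.34) and Col5a2 (0.0072). Col3a1 between genotypes under leonurine reversed to 0.24 without wild-type leonurine replicate 1. With the other wild-type leonurine replicate left out instead, these values were -0.85 for Col1a1, -0.96 for Col1a2, -0.80 for Col5a2 and, between genotypes, -1.40 for Col3a1. The cause was not tested. Of the gene values under alternatives, 689 kept direction and side of the threshold and 80 lost a call. Depth limits Lox, Loxl1, Timp1 and Serpine2 most, with 11, 26, 26 and 29 fragments in their lowest libraries.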
